A study of Mus musculus with 4 samples.

Results

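Cyclin-dependent kinase inhibitors and D cyclins set whether a fibroblast passes from G1 into S phase. The D cyclins, made in response to growth factors, bind Cdk4 and Cdk6, and these kinases phosphorylate the retinoblastoma protein Rb1, which otherwise holds E2F transcription factors in check. The Ink4 proteins (Cdkn2a to Cdkn2d) bind Cdk4 and Cdk6 directly, and the Cip/Kip proteins (Cdkn1a to Cdkn1c) bind cyclin complexes. In cultured mouse fibroblasts Cdkn2a, through its products p16Ink4a and p19Arf, and the p53 target Cdkn1a are known for the arrest called senescence.

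The genes described here are Cdkn1a, Cdkn1b, Cdkn1c, Cdkn2a, Cdkn2b, Cdkn2c, Cdkn2d, Rb1, Ccnd1 and Ccnd2, each taken as the RefSeq entry with the highest mean level over all 4 libraries. Of these 10 genes, 9 were matched, out of 16612 genes with a symbol in the table, and all 9 passed the filter on low values, which asked for 1 RPKM (reads divided by the length of the transcript and by the library's read total) in at least 1 library. Cdkn1c had no matching entry and is not analysed here. The 9 genes had 11 transcript entries, since Cdkn1a and Cdkn2a each had a second one.

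RNA came from mouse embryonic fibroblasts (MEFs), grown in DMEM medium with 10% fetal bovine serum, in 4 groups. These were cells labelled Mll1-/- given tumour necrosis factor alpha (TNF), cells labelled Mll1-/- given control solution, wild-type (Mll1+/+) cells given TNF and wild-type cells given control solution. TNF was used at 10 ng/ml, per the series' design text, and cells were harvested after 4 hr. The labels' treatment text writes the unit of this dose differently, so the records disagree on it. Mll1 (Kmt2a) places methyl groups on lysine 4 of histone H3, and the study asked how it bears on transcription that TNF activates. Cells from 3 treatments were mixed into 1 library for each group, so replicate error is unknown and nothing below carries a p-value. How the Mll1 allele was made, which exons it lacks, the passage of the cells and whether the lines were immortalised could not be read from the labels. In such bulk RNA, fewer cells of a kind and less RNA per cell cannot be told apart.

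The libraries held 19306506 reads for Mll1-/- with TNF, 20081869 for Mll1-/- control, 27977248 for wild type with TNF and 27728647 for wild-type control. Kmt2a, the targeted gene, stood at 1.66 RPKM in Mll1-/- with TNF and 2.02 RPKM in Mll1-/- control, against 2.11 RPKM in wild type with TNF and 1.85 RPKM in wild-type control. Its whole-transcript level therefore did not separate the genotypes, and the name Mll1-/- below stands for the library's label. Of 14 fibroblast markers 12 were measured, and their summed level was 5209 and 4329 RPKM in the Mll1-/- libraries, TNF and control, against 5214 and 5673 RPKM in the wild-type libraries, TNF and control. Dcn, a matrix proteoglycan of fibroblasts, was listed at 0 in both wild-type libraries, and Pdgfra, a receptor for platelet-derived growth factor, stood at 3.86 and 3.20 RPKM in the Mll1-/- libraries, against 0.267 and 0.220 RPKM in the wild-type libraries. The collagen gene Col6a1 was lower, at 14.03 and 13.03 RPKM in the Mll1-/- libraries, against 81.6 and 83.4 RPKM in the wild-type libraries. Vim and S100a4 were also lower in both Mll1-/- libraries than in both wild-type libraries. All other measured fibroblast markers were higher in both. Without TNF the median log2 ratio of Mll1-/- over wild type for the fibroblast markers was 1.09. Most of the summed level was Vim and S100a4, and S100a4 was lowest in the Mll1-/- control library. Summed neural markers, mostly Nes and Tubb3, were 91.9 and 104 RPKM in the Mll1-/- libraries, against 14.1 and 14.4 RPKM in the wild-type libraries. Map2 made up most of the rest in the Mll1-/- libraries, and Gfap, Olig2 and Elavl3 were below 1 RPKM in all 4 libraries. Summed epithelial markers, nearly all Krt19, were 22.0 and 25.1 RPKM in the Mll1-/- libraries, against 42.5 and 53.7 RPKM in the wild-type libraries. Summed muscle markers, nearly all Acta1, were 212 and 208 RPKM in the Mll1-/- libraries, against 143 and 177 RPKM in the wild-type libraries. Summed leukocyte and endothelial markers were below 1 RPKM in all 4 libraries. The part these marker differences play in the results below was not tested.

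Short transcripts were relatively low in the Mll1-/- control library. The median log2 ratio of Mll1-/- over wild type without TNF was -0.53 for the shortest 10% of genes (median length 438 bases) and 0.25 for the longest 10% (7120 bases), and that of TNF over control in Mll1-/- was 0.31 and -0.20. In wild type the TNF ratio stood at -0.01 for the shortest 10% and 0.03 for the longest. Values with this trend removed, by a running median over genes of like length, are marked as such below.

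Cdkn2a and Cdkn2b lie side by side on chromosome 4, and Cdkn2a gives p19Arf and p16Ink4a from separate starts, so these 3 start sites are shown first, as 300 bases of RefSeq sequence on GRCm38.p6 (250 before and 50 from the start), 5′ to 3′, with the single E2F site found in capitals. The first window is that of p19Arf, the second that of p16Ink4a and the third that of p15Ink4b.

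Cdkn2a, Arf start, chr4:89294570-89294869, minus strand: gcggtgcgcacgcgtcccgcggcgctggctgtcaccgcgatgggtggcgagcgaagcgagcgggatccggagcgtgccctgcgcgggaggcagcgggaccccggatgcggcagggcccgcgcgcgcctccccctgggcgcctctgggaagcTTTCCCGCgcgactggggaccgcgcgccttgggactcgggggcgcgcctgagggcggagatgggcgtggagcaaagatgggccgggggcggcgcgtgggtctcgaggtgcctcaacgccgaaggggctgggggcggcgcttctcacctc
Cdkn2a, Ink4a start, chr4:89282143-89282442, minus strand: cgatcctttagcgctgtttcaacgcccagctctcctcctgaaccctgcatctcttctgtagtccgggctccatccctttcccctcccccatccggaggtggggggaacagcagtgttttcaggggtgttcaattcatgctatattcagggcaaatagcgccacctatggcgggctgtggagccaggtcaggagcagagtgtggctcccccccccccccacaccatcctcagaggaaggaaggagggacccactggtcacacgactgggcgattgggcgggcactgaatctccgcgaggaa
Cdkn2b start, chr4:89310983-89311282, minus strand: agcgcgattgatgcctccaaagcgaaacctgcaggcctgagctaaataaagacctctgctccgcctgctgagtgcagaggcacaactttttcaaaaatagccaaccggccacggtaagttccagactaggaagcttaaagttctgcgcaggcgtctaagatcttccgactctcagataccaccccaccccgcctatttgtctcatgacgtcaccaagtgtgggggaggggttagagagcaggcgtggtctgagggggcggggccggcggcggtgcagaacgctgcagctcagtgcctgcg

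The windows differ in CG dinucleotides, the sites of DNA methylation in mammals. The Arf window held 45, the Ink4a window 12 and the Cdkn2b window 18, against a median of 7 over all 32851 promoter windows of this length. Both strands were searched for the E2F sites TTTCGCGC, TTTGGCGC, TTTCCCGC and TTTGCCGC, for TATAAA and for the NF-kB consensus. E2F letters were found in 2.26% of all windows, TATAAA in 13.6% and the NF-kB consensus in 8.46%. Of the 9 windows of 6 of the genes, the Arf window held the E2F site TTTCCCGC, at position -99 from the start, and the Cdkn2d window held the NF-kB consensus. A match is a description of letters and not of a bound site, and Ccnd1, Ccnd2 and Rb1 had no window in the table.

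**Figure D1:**
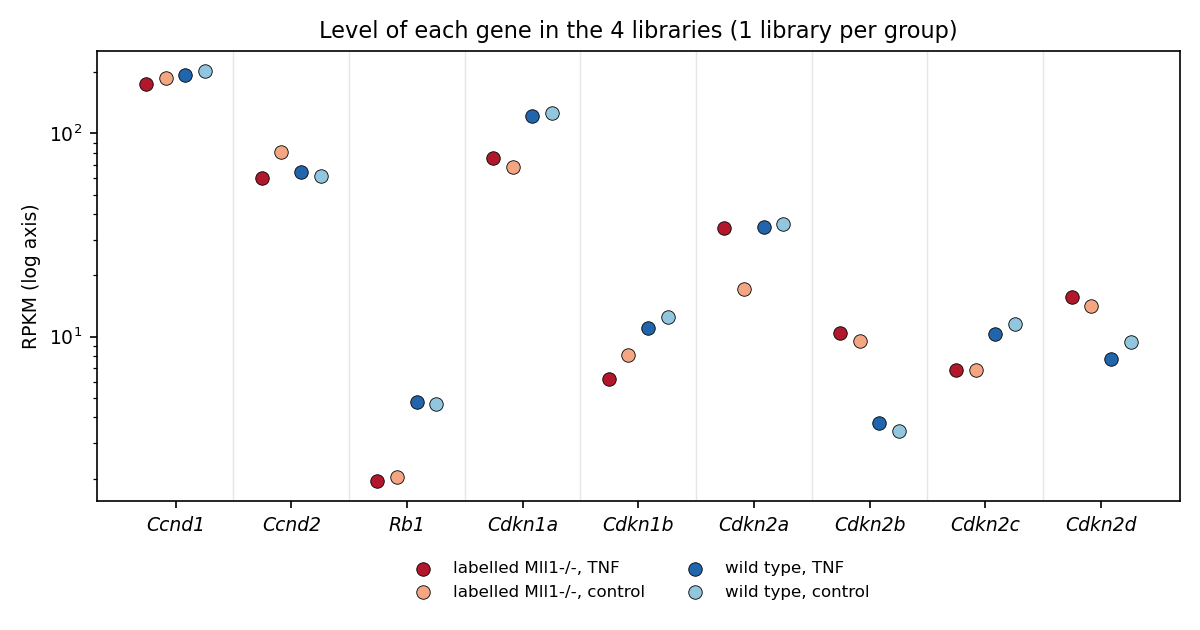
RPKM of each of the 9 genes in the 4 libraries, on a log axis, with 1 point for each library. Ccnd1 stands highest in all 4 libraries, Rb1 lowest in the Mll1-/- libraries and Cdkn2b lowest in the wild-type libraries.

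Among the Ink4 inhibitors, Cdkn2b (p15Ink4b, an inhibitor of Cdk4 and Cdk6 known as a target of TGF-beta) was higher in the cells labelled Mll1-/-. It stood at 10.4 RPKM (280 reads) in Mll1-/- with TNF and 9.54 RPKM (267 reads) in Mll1-/- control, against 3.77 RPKM (147 reads) in wild type with TNF and 3.42 RPKM (132 reads) in wild-type control. Both Mll1-/- libraries lay above both wild-type libraries. The share of all features whose genotypes are apart in this way was not counted, here or below. A log2 ratio at least as high was found for 4.55% of all features with TNF and 4.75% without it. The read ratio of Mll1-/- over wild type was 2.76 with TNF (95% counting interval 2.25 to 3.39) and 2.79 without it (2.26 to 3.47). Counting intervals are exact binomial ones for the reads alone and say nothing of the error between cultures or of copies made by PCR. Both comparisons of genotype give log2 ratios near one another, 1.35 with TNF and 1.36 without it on the log2(RPKM + 0.5) scale, which is used for all log2 ratios unless reads are named. Cdkn2b had the widest range of the 9 genes, 1.48 on the log2 scale between its highest and lowest library.

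Cdkn2d (p19Ink4d, a further inhibitor of Cdk4 and Cdk6) was also higher in Mll1-/- cells, at 15.6 RPKM with TNF and 14.2 RPKM in control, against 7.73 RPKM in wild type with TNF and 9.39 RPKM in wild-type control. Again the genotypes did not overlap, and 6.93% of all features had a log2 ratio at least as high with TNF and 14.8% without it. Reads of Mll1-/- over wild type stood at a ratio of 2.02 with TNF (counting interval 1.72 to 2.37) and 1.51 without it (1.30 to 1.76). With the length trend removed the log2 ratios were 1.08 with TNF and 0.88 without, against 0.97 and 0.57 before.

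Cdkn2c (p18Ink4c, an Ink4 inhibitor known from terminal differentiation) went the other way. Its level was 6.85 RPKM in Mll1-/- with TNF and 6.85 RPKM in Mll1-/- control, against 10.3 RPKM in wild type with TNF and 11.5 RPKM in wild-type control. The 2 Mll1-/- libraries were alike, and both lay below the wild-type libraries. Ratios at least as low were found for 12.6% of all features with TNF and 15.1% without it. Mll1-/- over wild type gave a read ratio of 0.666 with TNF (counting interval 0.544 to 0.812) and 0.596 without it (0.490 to 0.722), and the log2 ratio without TNF was -0.71, or -0.46 with the length trend removed.

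Cdkn2a set the Mll1-/- control library apart from the other 3. The entry used is that of p19Arf, the product that stabilises p53, and it stood at 34.2 RPKM (613 reads) in Mll1-/- with TNF and 17.1 RPKM (319 reads) in Mll1-/- control, against 34.8 RPKM (904 reads) in wild type with TNF and 35.9 RPKM (924 reads) in wild-type control. The Mll1-/- control library is low and the others lie close to one another. TNF over control gave a read ratio of 1.999 in Mll1-/- (counting interval 1.74 to 2.30) and 0.970 in wild type (0.884 to 1.06). Mll1-/- over wild type gave 0.983 with TNF (0.885 to 1.09) and 0.477 without it (0.418 to 0.542).

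The difference in TNF response of Cdkn2a, the log2 TNF ratio in Mll1-/- minus that in wild type, was 1.02, with an interval from reads of 0.81 to 1.28. This difference, the TNF ratio in Mll1-/- and the genotype ratio without TNF all rest on the Mll1-/- control library and are not separate observations. That library is the one in which short transcripts are relatively low, and the transcript behind this entry has 929 bases. With the length trend removed, the log2 TNF ratio in Mll1-/- was 0.77 (0.98 before), the genotype ratio without TNF was -0.66 (-1.05 before) and the difference in response was 0.79. A log2 TNF ratio at least as high in Mll1-/- was found for 108 features, 0.751% of all compared, and 0.862% after removal of the trend. What part the library's other properties play was not tested.

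The second Cdkn2a entry is that of p16Ink4a, which binds Cdk4 and Cdk6. It stood at 33.8 RPKM in Mll1-/- with TNF and 17.2 RPKM in Mll1-/- control, against 27.2 RPKM in wild type with TNF and 28.9 RPKM in wild-type control. Here too the Mll1-/- control library was low, and the Mll1-/- library with TNF was above both wild-type libraries. The read ratio of TNF over control in Mll1-/- was 1.97 (counting interval 1.70 to 2.27), and that of Mll1-/- over wild type was 1.24 with TNF (1.11 to 1.39) and 0.595 without it (0.517 to 0.683). In GENCODE M21 the pair of transcripts share 578 bases, so reads from the common exons count for both, and the values of each are uncertain.

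The 2 entries differed by few reads in the Mll1-/- libraries. Arf had 59 more reads than Ink4a in Mll1-/- with TNF and 26 more in Mll1-/- control, against 257 more in wild type with TNF and 244 more in wild-type control. Scaled to the library totals, this excess was 3.06 and 1.29 RPM (reads scaled to the library total but not to length) in the Mll1-/- libraries, TNF and control, against 9.19 and 8.80 RPM in the wild-type libraries. The excess was therefore smaller in both Mll1-/- libraries, and the ratio of the 2 entries in RPKM, Arf over Ink4a, was 1.01 and 0.996 there, against 1.28 and 1.24 in the wild-type libraries. The deposited values do not say which exons the reads lay in.

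**Figure D2:**
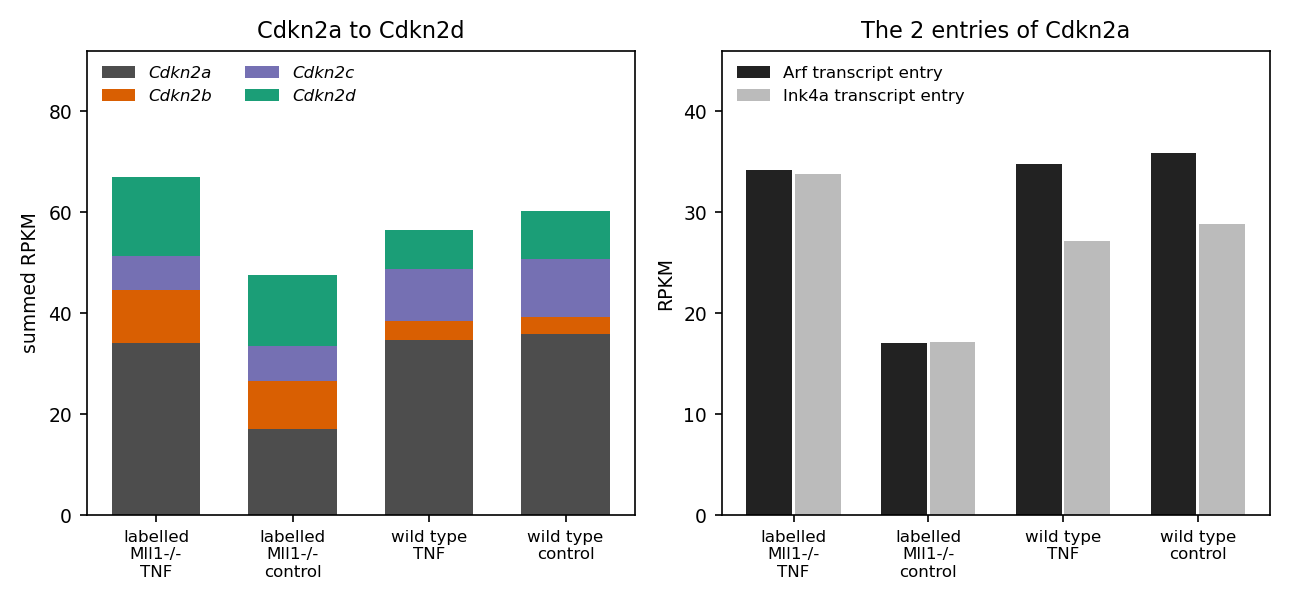
Left, RPKM of Cdkn2a, Cdkn2b, Cdkn2c and Cdkn2d stacked for each library; right, RPKM of the Arf and Ink4a entries of Cdkn2a in each library. The stacked Cdkn2a value is that of the Arf entry. The Mll1-/- control library has the lowest sum, 47.7 RPKM, and the lowest value of both Cdkn2a entries.

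For the sums of the 4 Ink4 genes, Cdkn2a was counted by its p19Arf entry, not by that of p16Ink4a, which binds Cdk4 and Cdk6. The sum was 67.0 RPKM in Mll1-/- with TNF and 47.7 RPKM in Mll1-/- control. In wild type it was 56.6 RPKM with TNF and 60.2 RPKM in control. The sums overlap between genotypes, while their make-up does not. Cdkn2a was 51.0% and 35.9% of the sum in the Mll1-/- libraries, TNF and control, against 61.5% and 59.6% in the wild-type libraries. Cdkn2b was 15.5% and 20.02% in the Mll1-/- libraries, against 6.67% and 5.68% in the wild-type libraries. Cdkn2d was 23.3% and 29.7% in the Mll1-/- libraries, against 13.7% and 15.6% in the wild-type libraries. Cdkn2c was 10.2% and 14.4% in the Mll1-/- libraries, against 18.2% and 19.1% in the wild-type libraries. Counted this way, the family in Mll1-/- cells was made up less of Cdkn2a and Cdkn2c and more of Cdkn2b and Cdkn2d. The p16Ink4a entry was lower than that of p19Arf in wild type, at 27.2 RPKM with TNF and 28.9 RPKM in control. In the Mll1-/- libraries the entries were near one another. The gap in the Cdkn2a share therefore depends on the entry used, and shares by the p16Ink4a entry were not computed.

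Of the Cip/Kip inhibitors, Cdkn1a (p21, which p53 induces and which blocks cyclin-Cdk2 complexes) was lower in Mll1-/- cells. It stood at 75.3 RPKM (2778 reads) in Mll1-/- with TNF and 68.1 RPKM (2611 reads) in Mll1-/- control, against 121 RPKM (6478 reads) in wild type with TNF and 126 RPKM (6699 reads) in wild-type control. Both Mll1-/- libraries lay below both wild-type libraries, and 9.25% of all features had a log2 ratio at least as low with TNF and 10.2% without it. In reads, Mll1-/- over wild type was 0.621 with TNF (counting interval 0.594 to 0.650) and 0.538 without it (0.514 to 0.563). A second Cdkn1a entry, which shares most of its reads, gave 72.1 and 64.9 RPKM in the Mll1-/- libraries, TNF and control, against 117 and 123 RPKM in the wild-type libraries.

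Cdkn1b (p27, held high in resting cells and removed through Skp2) stood at 6.20 RPKM in Mll1-/- with TNF and 8.10 RPKM in Mll1-/- control, against 11.03 RPKM in wild type with TNF and 12.5 RPKM in wild-type control. It was lower in both Mll1-/- libraries than in both wild-type libraries. Log2 ratios at least as low were found for 7.33% of all features with TNF and 18.9% without it. The read ratio of Mll1-/- over wild type was 0.562 with TNF (counting interval 0.489 to 0.645) and 0.647 without it (0.572 to 0.730). With TNF it was lower than in control in Mll1-/- cells, at a read ratio of 0.766 (0.656 to 0.894), and its log2 ratio in wild type was -0.18. TNF ratios at least as low on the log2 scale were found for 5.50% of all features in Mll1-/- and 13.7% in wild type. The sum of Cdkn1a and Cdkn1b was 81.5 and 76.2 RPKM in the Mll1-/- libraries, TNF and control, against 132 and 139 RPKM in the wild-type libraries.

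Rb1, the retinoblastoma protein that the D cyclin kinases phosphorylate, was lower in Mll1-/- cells, at 1.95 RPKM (175 reads) with TNF and 2.05 RPKM (191 reads) in control, against 4.79 RPKM (622 reads) in wild type with TNF and 4.68 RPKM (602 reads) in wild-type control. The genotypes did not overlap, and TNF made little difference to either. Of all features, 3.72% had a log2 ratio at least as low with TNF and 7.51% without it. By reads, the ratio of Mll1-/- over wild type was 0.408 with TNF (counting interval 0.343 to 0.483) and 0.438 without it (0.370 to 0.516). Its log2 ratio was -1.11 with TNF and -1.02 without, and with the length trend removed -1.12 and -1.19.

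The D cyclins differed least. Ccnd1, the cyclin that growth factor signals raise in fibroblasts, stood at 175 RPKM (12806 reads) in Mll1-/- with TNF and 188 RPKM (14350 reads) in Mll1-/- control, against 193 RPKM (20521 reads) in wild type with TNF and 202 RPKM (21274 reads) in wild-type control. It spanned 0.21 on the log2 scale over the 4 libraries, the narrowest range of the 9 genes. The read ratio of Mll1-/- over wild type was 0.904 with TNF (counting interval 0.884 to 0.925) and 0.931 without it (0.912 to 0.951), both small in size though outside counting error. Without TNF its log2 ratio of -0.10 became 0.20 when libraries were scaled to equal sums without the 20 most abundant genes, so its direction depends on the scaling.

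Ccnd2, a D cyclin that can act beside Ccnd1, was highest in the Mll1-/- control library. It stood at 60.3 RPKM in Mll1-/- with TNF and 81.0 RPKM in Mll1-/- control, against 64.6 RPKM in wild type with TNF and 61.7 RPKM in wild-type control. The other 3 libraries were close to one another. The read ratio of TNF over control in Mll1-/- was 0.744 (counting interval 0.721 to 0.768), and the log2 ratio of -0.42 became -0.25 with the length trend removed, its transcript being 5772 bases long. A log2 TNF ratio at least as low in Mll1-/- was found for 3.27% of all features, and 11.5% after removal of the trend. Ccnd1 RPKM divided by Cdkn1a RPKM was 2.32 and 2.77 in the Mll1-/- libraries, TNF and control, against 1.59 and 1.60 in the wild-type libraries. These quotients still hold the length trend, as the Ccnd1 transcript is the longer. With it removed, the log2 ratio of Mll1-/- over wild type without TNF was -0.72 for Cdkn1a (-0.89 before). For Ccnd1 it was -0.18 (-0.10 before).

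**Figure D3:**
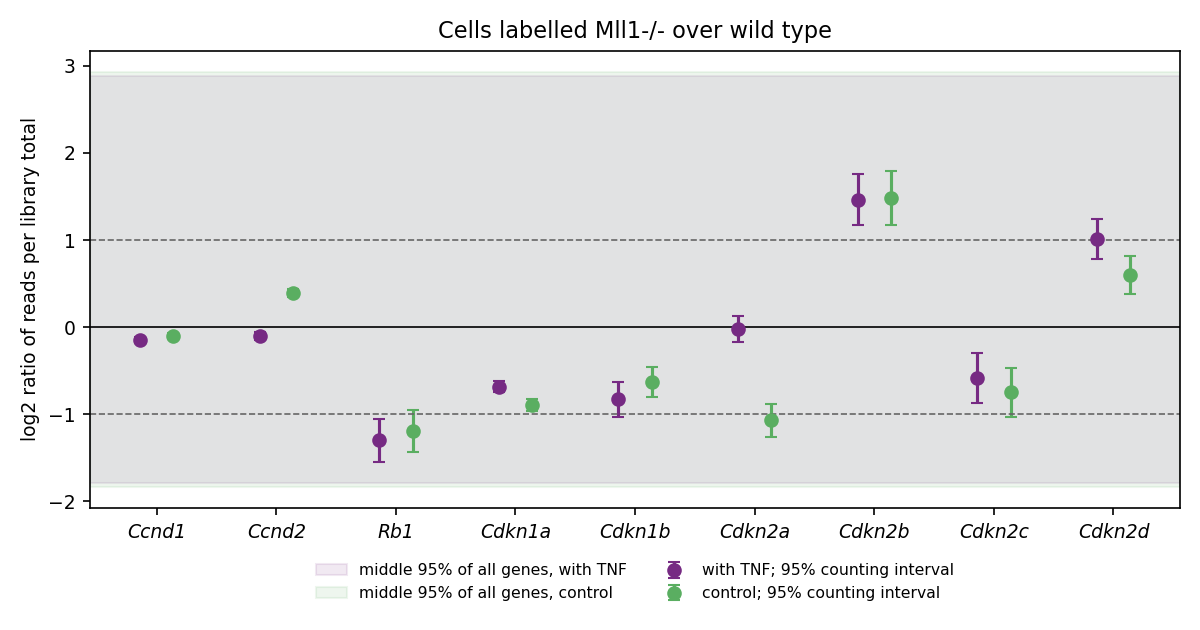
Log2 ratio of reads per library total, Mll1-/- over wild type, for each gene, with TNF and in control, with 95% counting intervals. Shaded bands, tinted like the points, span the middle 95% of all genes compared. Dashed lines mark a log2 ratio of 1 in either direction. Cdkn2b and Cdkn2d lie above 0 in both comparisons. Rb1, Cdkn1a, Cdkn1b, Cdkn2c, Ccnd1 and Cdkn2a lie below 0 in both, though the Cdkn2a interval with TNF includes 0.

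A size rule of 1 on the log2 scale, a 2-fold difference, was applied to all 14386 genes and unnamed entries that passed the filter. In Mll1-/- over wild type with TNF, 1 of the 9 genes was past it upward (Cdkn2b) and 1 downward (Rb1), where 6.71% of all features were past it upward and 4.5% downward. Without TNF, 1 was past it upward (Cdkn2b) and 2 downward (Rb1 and Cdkn2a), where 7.11% of all were upward and 7.99% downward. With 9 genes, counts of 1 or 2 set them apart from other genes in neither direction. The median log2 ratio of the 9 was -0.14 with TNF (-0.05 over all features) and -0.60 without it (-0.07 over all features). These comparisons share libraries, so each is a description of the same 4.

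With TNF none of the 9 genes was past the size rule in Mll1-/- cells, where 0.688% of all features were upward and 0.16% downward, and none in wild-type cells, where 0.521% were upward and 0.0556% downward. The median log2 TNF ratio of the 9 was -0.00 in Mll1-/- cells and -0.06 in wild-type cells. Cdkn2a came nearest in Mll1-/- cells, at 0.98, and Cdkn2d had the lowest value in wild-type cells, at -0.26 (read ratio 0.823, counting interval 0.699 to 0.969). For the difference in response, 1 gene, Cdkn2a, was past the size rule upward and none downward, where 0.758% of all features were upward and 0.424% downward.

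**Figure D4:**
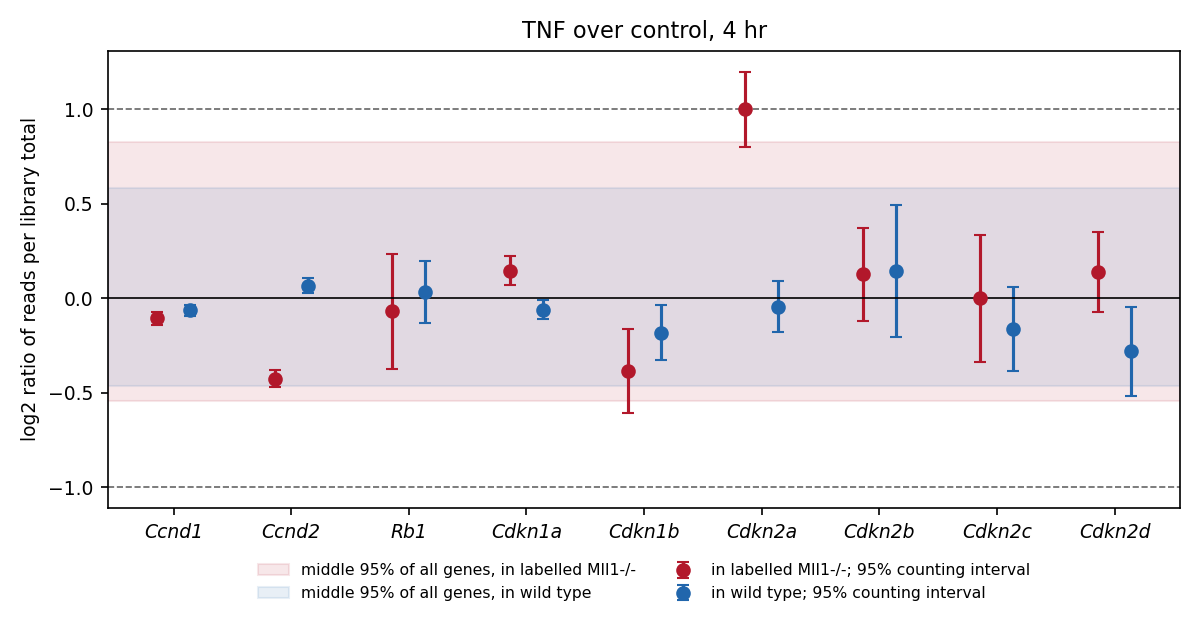
Log2 ratio of reads per library total, TNF over control, for each gene in Mll1-/- and wild-type cells, with 95% counting intervals. Shaded bands, tinted like the points, span the middle 95% of all genes compared and dashed lines mark 1 in either direction; Cdkn2a in Mll1-/- cells stands near 1 while all wild-type points stay close to 0.

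Counts of Mll1-/- over wild type in the gene lists are to be read against the same shares of all features. These were 6.71% upward and 4.5% downward with TNF, and 7.11% upward and 7.99% downward without it. Of 20 listed kinase and cyclin partners of these genes, 1 was higher past the size rule in Mll1-/- over wild type with TNF and the same number without it, none lower, with medians of 0.02 and -0.03, a count near that background. The one higher was Ccnb2, a mitotic cyclin, at 47.6 and 40.2 RPKM in the Mll1-/- libraries, TNF and control, against 15.2 and 16.9 RPKM in the wild-type libraries. Ccnd3, the other D-type cyclin, stood at 28.5 and 27.7 RPKM in the Mll1-/- libraries, against 34.8 and 40.7 RPKM in the wild-type libraries. Cdc25b, a phosphatase that activates Cdks, had a log2 ratio of 0.56 without TNF, and Cks1b, a Cdk-binding subunit that helps Skp2 recognise p27, had -0.60, or -0.28 with the length trend removed.

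Downstream of Rb1, 2 of 16 members of the Rb family, E2F and DREAM list were lower past the size rule in Mll1-/- cells, both with and without TNF, and none was higher. With a pseudocount of 1 the count was 0 with TNF and 1 without it, and it was also 1 without TNF under upper-quartile scaling and under equal sums. E2f2, an activating E2F, stood at 1.04 and 1.15 RPKM in the Mll1-/- libraries, TNF and control, against 3.01 and 2.98 RPKM in the wild-type libraries. E2f6, a repressive E2F, stood at 0.360 and 0.428 RPKM in the Mll1-/- libraries, against 1.64 and 1.90 RPKM in the wild-type libraries. E2f6 thus passed the filter only through wild type, where it is high. With at least 3 RPKM asked for in 1 library, 15 members were compared and 1 was lower, both with and without TNF. The highest pair without TNF were Lin9, a DREAM and MuvB subunit, at a log2 ratio of 0.51, and E2f3 at 0.27, or 0.55 and 0.11 with the length trend removed.

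Genes that E2F drives in S phase had medians near 0, at 0.04 with TNF and -0.13 without it, and 2 of 20 were higher past the size rule in each comparison. These were Prim1, a primase subunit, at 93.9 and 92.6 RPKM in the Mll1-/- libraries, TNF and control, against 42.6 and 43.6 RPKM in the wild-type libraries, and Mcm3, a subunit of the replicative helicase, at 188 and 192 RPKM against 91.3 and 95.3 RPKM. Tk1, thymidine kinase, and Gins1, a replication fork subunit, were lowest without TNF, at log2 ratios of -0.78 and -0.75, or -0.51 and -0.47 with the length trend removed. Of 16 genes of G2 and mitosis, 3 were higher past the size rule without TNF and none with it, and the medians were 0.36 with TNF and 0.44 without. The kinetochore genes Cenpe and Cenpf had log2 ratios of 0.80 and 0.81 with TNF and 1.30 and 1.29 without it, or 1.02 and 0.99 without it once the length trend was removed. Mki67, a proliferation marker chosen after its value was seen, was the third past the rule, at 1.12 without TNF, while Birc5 and Cdc20, mitotic regulators, had -0.55 and -0.39 without TNF, or -0.22 and -0.23 with the trend removed.

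The p53 list was lower in Mll1-/- cells, in the same libraries as Cdkn1a. Of 18 members, 4 were lower past the size rule with TNF and 7 without it, and 1 was higher in each, with medians of -0.52 and -0.75 against -0.05 and -0.07 over all features. The count of 7 without TNF became 4 with the length trend removed and 4 under equal sums without the 20 most abundant genes. Perp, a p53 target of cell adhesion, stood at 0.245 and 0.236 RPKM in the Mll1-/- libraries, TNF and control, against 10.2 and 11.6 RPKM in the wild-type libraries. Trp53inp1 had log2 ratios of -1.66 with TNF and -1.51 without it. Mdm2, the ubiquitin ligase that p53 induces and that removes p53, had -1.42 and -1.36 and was chosen after its values were seen. Pmaip1 (Noxa, a pro-apoptotic p53 target) was the one higher, at 3.55 and 3.53 RPKM in the Mll1-/- libraries, against 0.0269 and 0.0136 RPKM in the wild-type libraries, so the list was not uniform. Perp passed the filter only through the wild-type libraries, and Pmaip1 only through the Mll1-/- libraries. Sesn1, a stress-response gene, was second highest, at 0.19 with TNF and 0.15 without it. Trp53 itself, chosen likewise, had -0.29 with TNF and -0.27 without it.

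Known regulators of the Ink4a-Arf-Ink4b locus, Polycomb proteins and transcription factors, had medians of -0.16 with TNF and -0.00 without it among the 15 of 18 that passed the filter. None was past the size rule with TNF. Without it, Ets1, an activator of Ink4a, was higher at a log2 ratio of 1.12 (0.72 with TNF), and Id1, which opposes Ets factors, was lower at -1.52 (-0.66 with TNF). With the length trend removed Ets1 had 0.94 without TNF and was no longer past the size rule, and Id1 had -1.10. Id1 stood at 33.0 and 22.8 RPKM in the Mll1-/- libraries, TNF and control, against 52.5 and 66.1 RPKM in the wild-type libraries. Zbtb7a, a repressor of Arf, had 0.34 and Ring1, a Polycomb subunit, -0.39 without TNF, or 0.17 and -0.25 with the trend removed.

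Among 19 of 20 regulators of the Cip/Kip inhibitors and D cyclins, 2 were higher and 1 lower past the size rule in both comparisons of genotype, with medians of 0.07 with TNF and 0.25 without it. Without TNF the count higher was 3 with the length trend removed and 4 under equal sums, and with TNF none was lower at a pseudocount of 1. Fbxo31, an F-box protein reported to act on cyclin D1, stood at 4.64 and 4.02 RPKM in the Mll1-/- libraries, TNF and control, against 0.334 and 0.476 RPKM in the wild-type libraries. Klf4, a zinc finger factor known to activate Cdkn1a, stood at 22.7 and 24.6 RPKM in the Mll1-/- libraries, against 7.35 and 8.02 RPKM in the wild-type libraries. Egr1, an immediate early factor, was the one lower, at log2 ratios of -1.07 with TNF and -1.76 without it. It stood at 0.303 and 0.276 RPKM in the Mll1-/- libraries, TNF and control, and passed the filter only through wild type. Fbxo31 passed only through the Mll1-/- libraries. With at least 3 RPKM asked for in 1 library, 17 were compared, with 2 higher and none lower in both comparisons. Jund, an AP-1 subunit, had -0.93 without TNF. None of the members of these lists was past the size rule for TNF over control in either genotype.

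Genes that senescent cells secrete or alter lay on both sides of 0, and several of them are also NF-kB targets. Of 18 compared, 5 were higher past the size rule in Mll1-/- over wild type with TNF and 3 lower, and 6 were higher and 1 lower without it. Mmp3, a matrix metalloproteinase, stood at 42.5 and 24.98 RPKM in the Mll1-/- libraries, TNF and control, against 0.327 and 0.0388 RPKM in the wild-type libraries. It passed the filter only through the Mll1-/- libraries. Cxcl5, a neutrophil chemokine, stood at 14.6 and 1.99 RPKM in the Mll1-/- libraries, against 338 and 24.99 RPKM in the wild-type libraries. With TNF over control, 5 were higher past the size rule in Mll1-/- cells (Cxcl1, Cxcl5, Ccl2, Mmp13 and Il6), and 6 in wild-type cells, those 5 and Mmp10. Over all features, 0.688% were higher past the rule with TNF in Mll1-/- cells and 0.521% in wild-type cells. In Mll1-/- cells Il6 stood at a log2 ratio of 1.03, and the count was 4 with the length trend removed, under upper-quartile scaling, under equal sums and with a pseudocount of 1. In wild-type cells it was 4 with a pseudocount of 1.

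**Figure D5:**
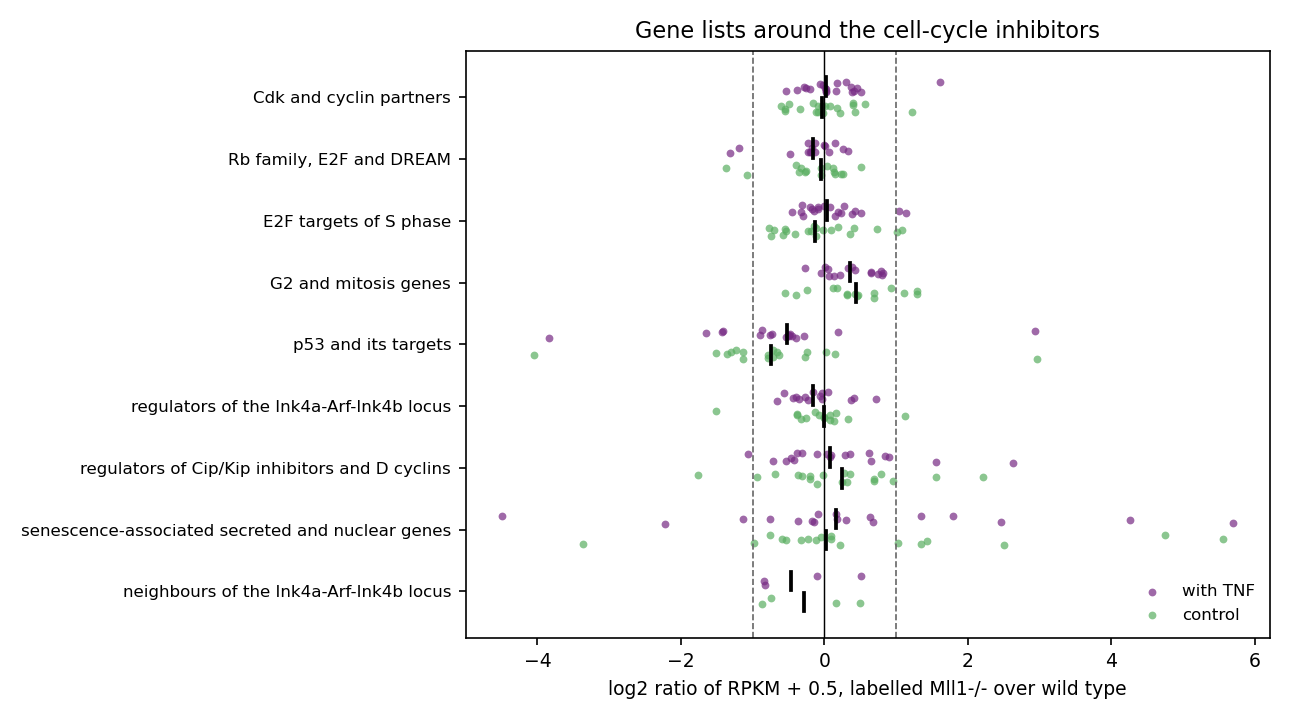
Log2 ratio of Mll1-/- over wild type, with TNF and in control, for each member of the gene lists, with a black bar at each list's median. The p53 list has medians of -0.52 with TNF and -0.75 in control, and the G2 and mitosis list medians of 0.36 and 0.44.

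The pattern of Cdkn2b, the gene with the widest range, was set against all 9575 genes with a symbol and at least 3 RPKM in 1 library. Likeness was the largest difference over the 4 libraries between centred log2 values, and 87 genes lay within 0.2. Nearest were Serpine2, a protease inhibitor, at 29.8 and 26.8 RPKM in the Mll1-/- libraries, TNF and control, against 11.5 and 10.2 RPKM in the wild-type libraries, then Rdh10, a retinol dehydrogenase, and Mmd. Their largest differences from Cdkn2b were 0.02, 0.04 and 0.04.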

How the data were processed

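Fragmented mRNA from 4 pooled libraries of mouse embryonic fibroblasts was sequenced. The submitters' processing notes name TopHat and DESeq, without a version or a role; no source used here gives the genome build, the annotation or the counting program. The authors deposited RPKM, per the file headers, for 27344 RefSeq entries in 4 libraries. Strand is not mentioned, so overlapping antisense genes cannot be separated.

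Whole reads were recovered from the RPKM steps, with the library total and each entry's length, in 27341 of 27344 entries (99.99%, within 0.0001 reads). Reads summed over entries exceed the totals 1.67 to 1.77 times. Entries were named by RefSeq (GRCm38.p6) and GENCODE M21 tables, and per symbol the entry with the highest mean RPKM was used. Log2 ratios are of RPKM + 0.5, which understates low genes; genes with at least 1 RPKM in 1 library were compared. With 1 library per group there is no test, and a size rule of 1 (log2) and Clopper-Pearson intervals of read ratios are given instead; the interval of a difference in response is normal on the log2 scale. Besides the 10 genes, the text names the 2 highest and 2 lowest members of each of 9 gene lists without TNF, any list member past the size rule with TNF, Kmt2a, and the 3 genes nearest the widest-ranging member; others are said to be chosen after seeing values. The members and lists were chosen with earlier results of these data known. Scripts were tested on simulated data and 11 alternatives were tried. Python 3.11.15, numpy 2.4.6, pandas 2.3.3, scipy 1.17.1 and matplotlib 3.10.9 were used.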

Additional observations from a re-analysis of the deposited data

Results flagged for a closer look

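The TNF response of Cdkn2a differed between the genotypes, with log2 TNF ratios of 0.98 in Mll1-/- cells and -0.04 in wild-type cells. The difference of 1.02 was not tested, since each group is 1 library, and it was singled out because the ratios point in opposite directions and differ by more than 1. The wild-type ratio lay within counting error of 0, with an interval from reads of -0.18 to 0.09, and was 0.001 with the length trend removed, so its direction is not established. With the trend removed the difference was 0.79. It rests on the Mll1-/- control library.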

How the results depend on the processing

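No paired analysis was possible because each group is 1 library, and for the same reason no replicate could be left out. Of 360 recomputed log2 ratios of the 9 genes, 341 stayed on their side of the size rule, 14 dropped below it, and 5 came past it. In 19 the sign changed, all of them ratios of at most 0.15 in size, and no ratio past the rule changed sign. In Mll1-/- over wild type without TNF, 3 genes were past the rule, against 1 with median-of-ratios scaling, upper-quartile scaling or equal sums without the 20 most abundant genes, and 6 at a lower size rule of 1.5-fold. With TNF, 2 became 1 with a pseudocount of 1 and 5 at 1.5-fold. For TNF in Mll1-/-, 0 became 1 at 1.5-fold. For the difference in response, 1 became 0 under those 3 scalings (Cdkn2a 0.99, 0.94 and 0.84) and with the length trend removed (0.79). Cdkn2a without TNF ranged from -0.96 to -0.66 where it missed the rule, and Rb1 from -0.95 to -0.77. Cdkn2d with TNF came past it, at 1.004 to 1.08. Equal sums shifted the median of all genes by 0.29 in Mll1-/- over wild type without TNF, so that 1567 were higher and 608 lower in place of 1023 and 1150, and 1182 and 710 with the trend removed; for the difference in response 61 and 104, and 38 and 141, replaced 109 and 61. TNF in Mll1-/- gave 73 and 39, and 62 and 54, in place of 99 and 23. All genes past the rule for TNF numbered 122 in Mll1-/-, against 223 with a pseudocount of 0.1, 78 at 3 RPKM, 243 from reads and 857 at 1.5-fold; in wild type 83, against 156, 196 from reads and 314. At 1.5-fold the genotype counts of 1613 with TNF and 2173 without it became 3431 and 4867. For the difference, 170 became 310, 107, 355 and 1239. The cause of each change was not tested.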

Other observations

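Along chromosome 4, genes around Cdkn2a and Cdkn2b differed between the genotypes in both directions. Places are in the RefSeq order of genes past the filter, without distances in bases. The nearest gene on each side, Mtap and Gm12669, was lower in the Mll1-/- libraries. Mtap, the neighbouring methylthioadenosine phosphorylase gene, stood at 58.1 and 55.0 RPKM in the Mll1-/- libraries, TNF and control, against 105 and 101 RPKM in the wild-type libraries. Gm12669, a predicted gene next on the other side, stood at 97.9 and 93.7 RPKM in the Mll1-/- libraries, against 173 and 183 RPKM in the wild-type libraries. Wincr1, a long noncoding RNA, stood at 12.05 and 7.56 RPKM in the Mll1-/- libraries, against 0.151 RPKM in wild-type control, and was listed at 0 in wild type with TNF. Jun, an AP-1 subunit, lay 8 places from the locus in this order. It stood at 36.5 and 26.9 RPKM in the Mll1-/- libraries, against 19.3 and 13.6 RPKM in the wild-type libraries. Gm12669, Wincr1 and Jun were chosen after their values were seen. Of 6 genes listed as neighbours, 4 passed the filter and none was past the size rule, with medians of -0.46 with TNF and -0.29 without it. Of these only Mtap is among the 20 nearest genes counted below, so the medians do not describe genes right beside the locus. Hacd4 had log2 ratios of 0.51 with TNF and 0.50 without it, and Klhl9 had -0.10 and 0.16. Focad had -0.83 and -0.74, and Mtap -0.84 and -0.87. Among the 20 genes past the filter that lie nearest the locus, 10 on each side, 1 was higher past the size rule with TNF and 7 lower. Without TNF 1 was higher and 4 lower. Over all features 6.71% were higher and 4.5% lower with TNF, and 7.11% higher and 7.99% lower without it. Most of the lower neighbours are Ifnz, an interferon-zeta gene, and predicted genes beside it. These had near-equal values below 3 RPKM in every library. They were below 1 RPKM in both Mll1-/- libraries and passed the filter only through wild type, so the filter set their direction. Mir31, lower without TNF, passed only through wild-type control, at 1.02 RPKM. Wincr1, the gene that was higher, passed only through the Mll1-/- libraries. The neighbour counts are therefore uncertain and say little of the locus.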
